A study of Mus musculus with 15 samples.

Results

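The complement genes described here are 9 members of the cascade: the C1q chains C1qa, C1qb and C1qc, the convertase parts C4b, C2 and Cfb, the central component C3, and the receptors C3ar1 and C5ar1. They were taken by name, 9 of the 15175 genes listed in one count table and of the 49585 listed in the other pair, and were chosen by the fold changes of C4b, which had differed between the M46 and HPK1 experiments. All 9 passed the filter on low counts in each comparison. RNA of mouse pancreas (C57BL/6) was sequenced in 15 libraries, each made from the pooled RNA of 3 mice.

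The mice carried HPK1 (Map4k1, a Ste20-family kinase) or its kinase-dead mutant M46 as a transgene that is silent until Cre removes a stop cassette. Cre came from Bac-cre, a tamoxifen-inducible CreERT under the acinar elastase I promoter, so the transgenes were switched on in acinar cells while RNA of the tissue as a whole was sequenced. The M46 experiment compared 3 libraries of M46 Bac-cre mice (MC) with 3 labelled "B control", all at 2 months of age. The HPK1 experiment compared 3 libraries labelled HPK1/B (HC) with 2 labelled WT, all at 4 months. Both ages are those of the labels, and the study's text gives a younger age for these mice. That text has the MC and HC pancreata taken the day after cerulein, a secretagogue that injures the exocrine pancreas. For their controls it names cerulein in one place and a mock injection in another, so whether the control libraries had the injury is unclear, and if they did not, injury and transgene cannot be told apart. The third comparison set 2 libraries of M46/Ras/B mice (KMC) at 9 months against 2 libraries of Ras/B mice (KC, without M46) at 15 months. The labels call this tissue pancreas too, whereas the study's text describes the KMC and KC samples as pancreatic cancers, so these 4 libraries may be of tumour. Each experiment has its own control libraries.

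Library depth was 29766575 to 38745907 counts. Map4k1 was at 6.79 to 8.31 CPM (counts scaled to the depth of each library, with TMM factors) in MC against 2.34 to 4.14 in the controls, and at 5.92 and 11.4 CPM in KMC against 0.54 and 1.55 in KC. It went against the label in the HPK1 experiment, where the 3 libraries labelled HC lay at 5.05 to 7.92 CPM and the 2 controls at 11.5 and 15.4 CPM. Ptprc, which encodes the leukocyte protein CD45, had the same direction as Map4k1 in each experiment. It was at 38.3 to 52.4 CPM in MC against 8.40 to 19.8 CPM in the controls. In KMC it was at 33.4 and 58.6 CPM against 3.13 and 10.1 CPM in KC. The libraries labelled HC had 35.0 to 62.5 CPM against 72.5 and 116 CPM in their controls. The part of leukocyte content in the Map4k1 level was not tested. Whether reads of the transgene were counted as Map4k1 is not given in the sources used here. Library 3 labelled HC expressed the Y-linked gene Ddx3y (48.3 CPM) and little Xist (0.76 CPM), whereas the other 4 libraries of that experiment had Xist at 579 to 928 CPM and no Ddx3y counts. The KC libraries had Ddx3y at 10.7 and 17.3 CPM and the KMC libraries had none, so sex and age cannot be told apart from M46 there. The table of the M46 experiment lists neither gene. Digestive-enzyme and other acinar genes, the defining markers of the tissue, took 37.5% to 56.0% of counts in the M46 experiment, 5.77% to 9.04% in the HPK1 experiment and 24.7% to 69.2% in the KMC and KC libraries. The tables were counted and scaled separately, so levels were compared by test only within an experiment.

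Complement is a chain of proteases and binding proteins that tags cells and debris. In the classical pathway, C1q recognises antibody or altered surfaces and its attached proteases cleave C4 and C2, which together form a C3-cleaving enzyme; in the alternative pathway factor B takes the place of C2. Cleaved C3 coats the target, and the small fragments released from C3 and C5 act on the receptors encoded by C3ar1 and C5ar1, which myeloid cells carry. Macrophages are the main source of C1q in most tissues, whereas C3, C4 and factor B are made largely by liver and, during inflammation, also by epithelial and stromal cells.

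In the GENCODE vM21 annotation of GRCm38, all 9 genes are protein-coding and lie on the minus strand. C1qb (chr4:136880129-136886187), C1qc (chr4:136889804-136893065) and C1qa (chr4:136895917-136898803) form a cluster of 18.7 kb. C4b (chr17:34728380-34743882), Cfb (chr17:34856374-34862518) and C2 (chr17:34862604-34898265) lie within 169.9 kb of the major histocompatibility region. C3 is on the same chromosome at chr17:57203970-57228136, C3ar1 at chr6:122847138-122856161 and C5ar1 at chr7:16246743-16259540.

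The identity of the C4b reads matters because the fold changes of C4b chose the gene set and C4b has a close copy, C4a (chr17:34809092-34823464). Over 5203 aligned coding bases the transcripts were 96.2% identical, with 199 differing bases, and 16.4% of all 100-base windows of the C4b coding sequence occurred unaltered in C4a. The 60-base window inside an exon with the most differences (chr17:34735430-34735489 in C4b, chr17:34816086-34816145 in C4a, minus strand, GRCm38) is shown for both, with the 13 differing bases in capitals.
C4b: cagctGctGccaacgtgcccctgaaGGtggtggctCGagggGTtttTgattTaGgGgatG
C4a: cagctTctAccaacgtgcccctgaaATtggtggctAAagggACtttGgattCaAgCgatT
Reads over such windows tell the genes apart. In the tables that list it, C4a reached at most 2.48 CPM, in a library where C4b was at 958 CPM. C4a is not listed in the table of the M46 experiment. C2 and Cfb carry another limit: 42.8% of the exonic bases of C2 and 79.5% of those of Cfb are shared with a readthrough gene, Gm20547, which had 0 counts in every library of the tables that list it. Whether reads over shared bases were assigned to either gene is not given in the sources used here, so the values of C2 and Cfb may count part of their reads.

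Upstream sequence from RefSeq (GRCm38.p6) was found for 5 of the 9 genes. It is shown for C1qc, as a gene of the C1q cluster, and for C3, the component on which all pathways meet. Each is written 5′ to 3′ on the minus strand and covers the bases within 250 of the RefSeq start that lie outside the GENCODE gene. The motifs searched, on both strands, were the interferon gamma-activated site TTCNNNGAA (GAS), the interferon regulatory factor core GAAANNGAA, PU.1 GAGGAAGT, C/EBP TTGCNNAA and AP-1 TGANTCA. Capitals mark matches.
C1qc (chr4:136893066-136893164): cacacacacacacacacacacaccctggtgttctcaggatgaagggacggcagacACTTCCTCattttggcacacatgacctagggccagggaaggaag
C3 (chr17:57228137-57228386): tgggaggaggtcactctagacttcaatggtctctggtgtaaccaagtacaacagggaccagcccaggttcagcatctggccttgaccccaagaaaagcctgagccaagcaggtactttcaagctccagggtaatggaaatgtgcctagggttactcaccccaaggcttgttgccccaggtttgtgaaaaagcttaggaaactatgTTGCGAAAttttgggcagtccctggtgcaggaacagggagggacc
C1qc held the PU.1 letters, named after a factor of myeloid cells, on the opposite strand 195 bases before its start, and 2.44% of the 32851 promoter windows searched hold them. C3 held the C/EBP letters, named after factors of the acute-phase response, 45 bases before its start, as did 9.56% of windows. Of the remaining windows, C3ar1 held the AP-1 letters (6.75% of all windows) and C5ar1 those of the interferon regulatory factor core (7.13%), and C1qb held no match. The GAS letters, found in 7.02% of windows, were in none of the 5.

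Counts per kilobase of annotated exon place the members in order within a group. In MC, C1qa (110.6 to 178 CPM per kb), C3 (115 to 171) and C1qb (112 to 144) were highest and overlapped one another. C1qc followed at 56.1 to 78.1 CPM per kb and C4b at 28.8 to 42.4, with no overlap between them. C3ar1 (7.46 to 19.4) and C5ar1 (6.92 to 9.84) overlapped, and Cfb and C2 were lowest at 0.35 to 1.09 and 0.53 to 0.82 CPM per kb. In the libraries labelled HC, C3 stood above the rest at 329 to 596 CPM per kb, C1qa was at 193 to 283 and C1qb at 130 to 172. C4b at 95.2 to 138 overlapped both C1qb and C1qc (82.9 to 111.5). The receptors and the pair C2 and Cfb kept the lower ranks there too.

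To ask whether the kinase-dead mutant was accompanied by other complement levels, MC was compared with its control. C4b, which chose the set, is left out of the counts for MC and HC and given as a description. The other 8 members all had log2 fold changes above 0, as did 46.8% of the 13902 genes tested, with a median of 1.07 against -0.024 over those genes. None of the 8 was called by edgeR (adjusted p at most 0.05 and a log2 fold change of at least 1 in size), nor was any other gene, so the share called over all genes was 0.0%. At an unadjusted p under 0.05, 6 of the 8 were higher (C1qa, C1qb, C1qc, C2, C3 and Cfb), beside 9.2% of all genes. DESeq2 called C1qa, C1qb, C1qc and C2, where it called 3.11% of all genes as higher. The MC and control libraries did not overlap for 5 of the 8 (C1qa, C1qb, C1qc, C2 and C3), and for 10.9% of all genes in that direction.

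C1qa, the A chain of C1q, was at 115, 140 and 185 CPM in the MC libraries and at 47.9, 86.8 and 43.9 CPM in the controls. Every MC library lay above every control library, and control library 2 was closest to them. The log2 difference was 1.301 (SE 0.30, edgeR adjusted p = 0.132). C1qb was at 122, 144 and 157 CPM against 56.4, 103 and 51.1 CPM (log2 1.004, SE 0.27, adjusted p = 0.189). C1qc was at 108, 130 and 151 CPM against 44.9, 85.7 and 44.2 CPM (log2 1.15, SE 0.28, adjusted p = 0.148). Control library 2 was again the highest control for both genes. Without it, edgeR called C1qa, C1qb, C1qc and C3, with adjusted p-values of 0.0249, 0.0208, 0.0208 and 0.0273, and 718 genes in all.

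C4b, the component cleaved by C1, was at 164, 241 and 197 CPM in MC and at 86.0, 56.4 and 62.8 CPM in the controls. The groups stood apart, and control library 2, which was high for C1q, had the lowest C4b of all. The log2 difference was 1.55 (SE 0.21), given without a test because C4b chose the gene set. C2, whose cleaved form joins C4, was at 2.77, 3.17 and 2.05 CPM against 1.06, 1.43 and 1.26 CPM (log2 1.09, SE 0.27, adjusted p = 0.158). Cfb, factor B, was at 0.98, 2.40 and 3.09 CPM against 0.50, 1.34 and 0.76 CPM, so MC library 1 lay within the controls (log2 1.31, SE 0.52, adjusted p = 0.312).

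C3 was at 590, 881 and 614 CPM in MC and at 234, 534 and 240 CPM in the controls (log2 1.05, SE 0.36, adjusted p = 0.263). The groups did not overlap, but control library 2 came close to the lowest MC library. The receptors overlapped. C3ar1, the receptor of the C3 fragment, was at 32.1, 48.8 and 83.5 CPM against 28.8, 49.0 and 15.0 CPM (log2 0.82, SE 0.47, adjusted p = 0.422). C5ar1, the receptor of the C5 fragment, was at 17.8, 20.5 and 25.3 CPM against 11.9, 26.5 and 6.06 CPM (log2 0.51, SE 0.46, adjusted p = 0.591), and its highest value was in control library 2.

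**Figure D1:**
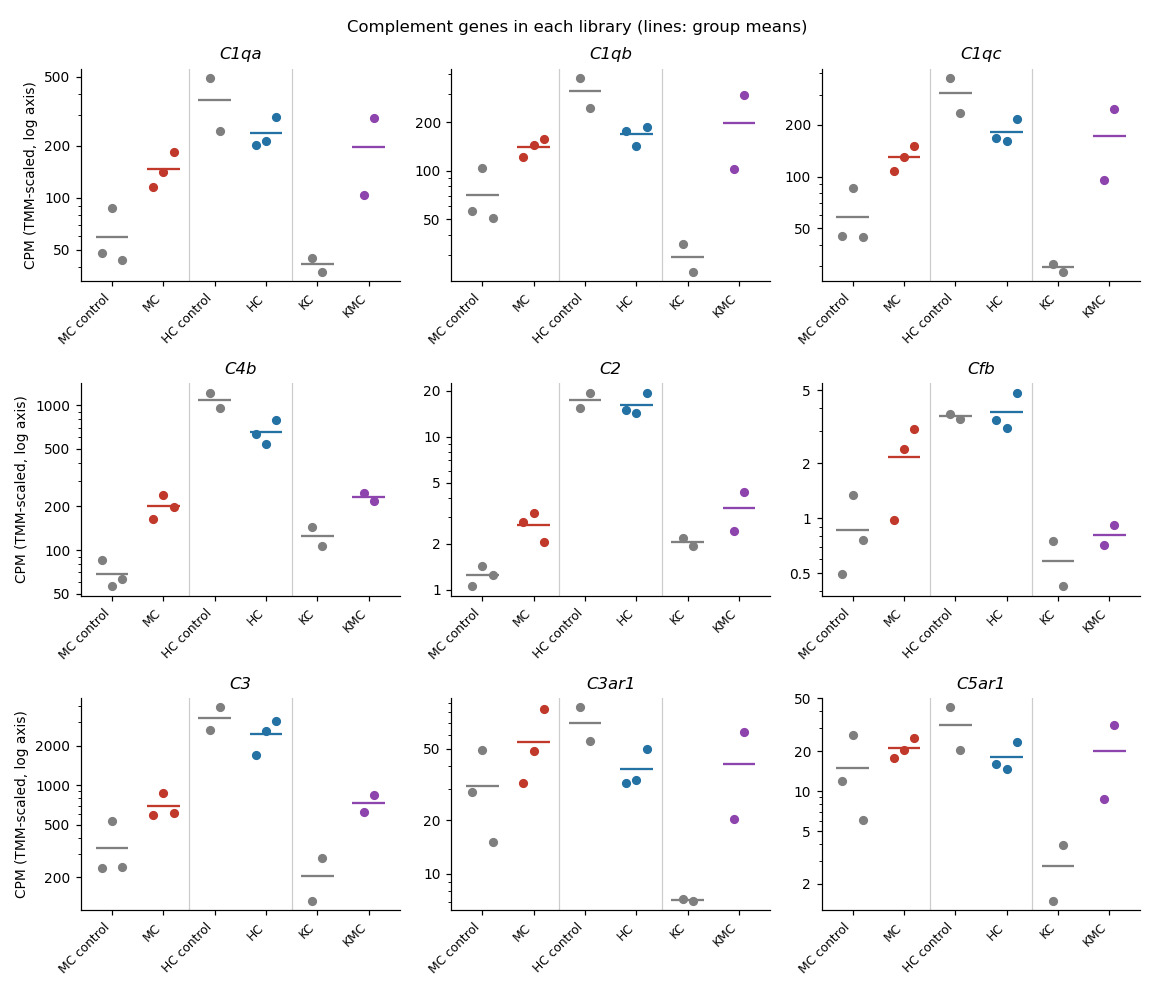
Level of each of the 9 genes in every library, in TMM-scaled CPM on a log axis, with lines at the group means; grey points are the control libraries of each experiment. The MC points lie above their controls for the C1q chains, C4b, C2 and C3, the points labelled HC lie below theirs for C1qb, C1qc, C4b and C3ar1, and the KMC points lie above KC for every gene but Cfb.

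The macrophage markers moved with these genes. All 8 had log2 fold changes above 0 in MC, 3 of them at an unadjusted p under 0.05 and 0 called by edgeR, and none was at or under 3 counts in every library. Their summed level was 781 to 1153 CPM in MC and 424 to 1130 CPM in the controls, highest among the controls in library 2 (1130 CPM). Lyz2 made up most of the sum in every library, at 444 to 699 CPM in MC and 289 to 822 CPM in the controls. In whole tissue, more cells of a type and more RNA per cell cannot be told apart. Set against the marker sum of the same library, the summed C1q chains were at 0.46 ± 0.059 in MC and 0.28 ± 0.043 in the controls (SD, n = 3 each), with no overlap and a log2 difference of 0.73. The two-sided exact permutation test gave p = 0.1, the smallest that 3 against 3 libraries allow. Set against Csf1r alone the log2 difference was 0.25 (exact p = 0.1), and against Adgre1 alone it was 0.26 with overlapping groups (exact p = 0.5). The part of macrophage content in the C1q result was not tested beyond these ratios.

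The C1q chains join in a fixed proportion in the protein, while the ratios of their transcripts varied between libraries. C1qa per C1qb, a ratio of CPM, was 0.94, 0.97 and 1.18 in the MC libraries and 0.85, 0.84 and 0.86 in the controls. The MC ratios all lay above the controls, by less than the fold differences of either gene. In KMC the ratio went the other way, at 1.02 and 0.99 against 1.29 and 1.59 in KC, without overlap. In the HPK1 experiment the ratios of the groups overlapped. Per unit of the macrophage sum, C4b was at 0.20, 0.31 and 0.17 in MC and at 0.15, 0.05 and 0.15 in the controls, the lowest in control library 2. The groups did not overlap, as was also so for the C1q sum. Per unit of the fibroblast sum, C4b was at 0.069 to 0.091 in MC and 0.024 to 0.073 in the controls, with overlap. The summed T cell markers were at 4.44 to 6.49 CPM in MC and 1.22 to 1.48 CPM in the controls, with 6 of 6 above 0 at an unadjusted p under 0.05 and 0 called. The summed B cell markers were at 2.67 to 62.9 CPM against 1.12 to 1.98 CPM, with 5 of 5 above 0 at an unadjusted p under 0.05 and 0 called. The fibroblast sum was 1920 to 2834 CPM in MC and 974 to 2378 CPM in the controls, and the hepatocyte sum 6.47 to 15.8 CPM against 2.25 to 5.30 CPM. Within the hepatocyte sum, Cyp2e1 was at 11.4, 7.03 and 3.43 CPM in MC and 0.20, 0.21 and 3.19 CPM in the controls. Alb (1.22, 4.37 and 2.00 against 0.99, 4.05 and 0.81 CPM) and Ahsg (2.64, 1.57 and 0.74 against 0.63, 0.89 and 0.67 CPM) overlapped. The part of these cell types in the C4b and C3 levels was not tested.

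To ask whether the active kinase was accompanied by the opposite, the libraries labelled HC were compared with their controls. The log2 fold change was below 0 for 7 of the 8 members other than C4b and for 50.1% of the 18407 genes tested, with a median of -0.69 against -0.001 over those genes. edgeR called 104 genes (0.565%) and none of the 8, and DESeq2 also called none of them, while it called 1.09% of genes as lower. At an unadjusted p under 0.05, C1qb, C1qc and C3ar1 were lower, beside 7.46% of all genes. Groups did not overlap for C1qb, C1qc and C3ar1, 3 of the 8, beside 16.1% of all genes in that direction.

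C1qa was at 201, 212 and 295 CPM in the libraries labelled HC and at 492 and 243 CPM in the controls, so the groups overlapped (log2 -0.64, SE 0.31, adjusted p = 0.384). C1qb was at 176, 141 and 188 CPM against 375 and 246 CPM (log2 -0.88, SE 0.21, adjusted p = 0.135). C1qc was at 168, 160 and 215 CPM against 374 and 236 CPM (log2 -0.75, SE 0.23, adjusted p = 0.199). For all 3 chains control library 1 was highest. Control library 2 lay nearer to the libraries labelled HC, and below 1 of them for C1qa.

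C4b was at 634, 542 and 787 CPM in the libraries labelled HC and at 1215 and 958 CPM in the controls, without overlap (log2 -0.73, SE 0.21, no test). C2 was at 15.0, 14.3 and 19.2 CPM against 15.3 and 19.3 CPM (log2 -0.10, SE 0.19, adjusted p = 0.848). Cfb was at 3.42, 3.11 and 4.85 CPM against 3.73 and 3.505 CPM (log2 0.07, SE 0.27, adjusted p = 0.933). C2 and Cfb thus differed by less than the spread between libraries, and their direction turned without 1 library: C2 was at log2 0.08 without control library 2, and Cfb at -0.16 without library 3 labelled HC. C3 was at 1692, 2568 and 3066 CPM against 2621 and 3901 CPM, with overlapping groups (log2 -0.42, SE 0.32, adjusted p = 0.585).

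C3ar1 was at 32.1, 33.5 and 50.1 CPM in the libraries labelled HC and at 85.3 and 55.0 CPM in the controls (log2 -0.86, SE 0.25, adjusted p = 0.194). C5ar1 was at 16.0, 14.6 and 23.6 CPM against 42.6 and 20.3 CPM (log2 -0.80, SE 0.34, adjusted p = 0.326). Only the former had groups that stood apart. Without library 3 labelled HC, the male library, the log2 fold changes were -0.85 for C1qa, -0.98 for C1qb, -0.91 for C1qc, -0.90 for C4b, -1.11 for C3ar1 and -1.05 for C5ar1, further from 0 than with it. Without control library 1 they were nearer to 0, at -0.05 for C1qa, -0.55 for C1qb, -0.38 for C1qc, -0.55 for C4b, -0.51 for C3ar1 and -0.17 for C5ar1. None of the members tested was called without either library.

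The macrophage markers were lower in the libraries labelled HC as well: 8 of 8 had log2 fold changes below 0, 6 of them at an unadjusted p under 0.05, and 0 were called. Their summed level was 1197 to 1929 CPM against 1978 to 3336 CPM in the controls. Per unit of it the C1q sum of the HC-labelled libraries was 0.39 ± 0.053 (SD, n = 3) and that of the controls 0.37 ± 0.0041 (SD, n = 2), a log2 difference of 0.09 (two-sided exact permutation p = 1.0, smallest possible 0.2). The ratios of the groups overlapped, and with this number of libraries the test cannot show that they were alike. C4b per unit of the macrophage sum also overlapped, at 0.53, 0.38 and 0.41 in the HC-labelled libraries and 0.36 and 0.48 in the controls. Neutrophil markers had a summed level of 50.8 to 63.2 CPM against 85.7 to 112 CPM, and Ly6g was at or under 3 counts in every library. The summed ductal markers were at 4146 to 5217 CPM against 2831 to 2832 CPM, with 7 of 7 above 0, 3 of them at an unadjusted p under 0.05 and 0 called. The summed B cell markers were at 12.5 to 14.4 CPM against 22.6 to 39.4 CPM, with 5 of 5 below 0 and 1 called. The fibroblast sum was 4651 to 9912 CPM against 9240 to 10531 CPM, with 5 of 7 below 0. The part of these cell types in the complement levels was not tested.

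**Figure D2:**
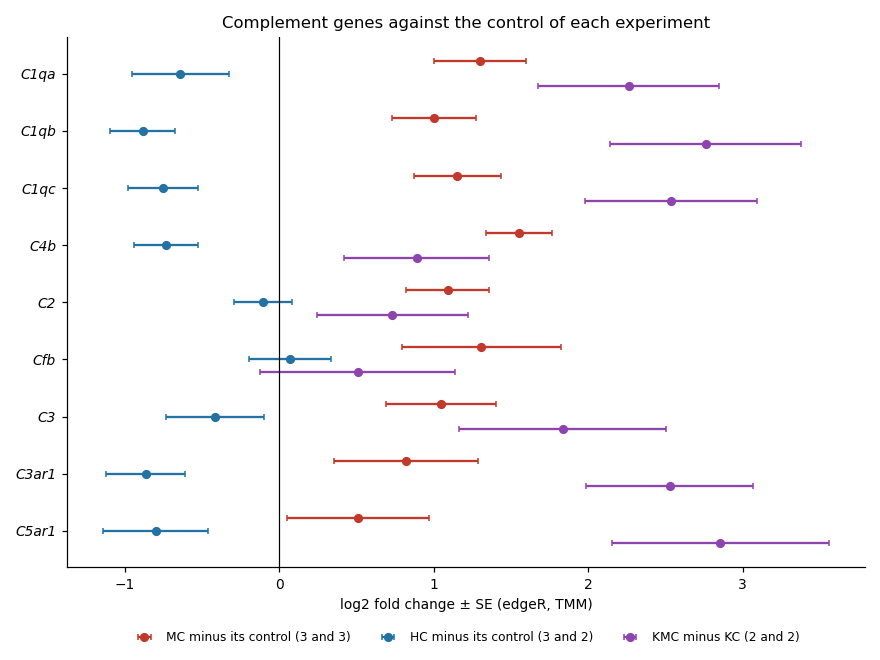
Log2 fold change of each gene against the control of its own experiment, with bars of 1 standard error (edgeR, TMM scaling). MC and KMC estimates lie to the right of 0 for all 9 genes and HC estimates to the left for all but Cfb, and the KMC bars are the widest for every gene.

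The difference between the M46 and the HPK1 effect, from a fit over the 4 groups, was 2.28 on the log2 scale for C4b (SE 0.31), the value behind the choice of these genes. It was 1.93 for C1qa (SE 0.47), 1.88 for C1qb (SE 0.38), 1.90 for C1qc (SE 0.40) and 1.68 for C3ar1 (SE 0.62). C3 followed at 1.46 (SE 0.52), C5ar1 at 1.31 (SE 0.66), Cfb at 1.23 (SE 0.63) and C2 at 1.19 (SE 0.31). These are descriptions, since the same contrast chose the set. They rest on labels that the Map4k1 level of the HPK1 experiment went against. The study's text, in contrast, reports HPK1 in acinar cells and high HPK1 kinase activity in the pancreata of HC mice. The Map4k1 level may not measure the transgene. With the HC and control labels exchanged, an alternative chosen after seeing the data, the difference would be 0.82 for C4b, 1.38 for Cfb, 0.99 for C2, 0.66 for C1qa, 0.41 for C1qc, 0.12 for C1qb, 0.63 for C3, -0.04 for C3ar1 and -0.29 for C5ar1, so both the sizes and their order depend on the labels. Over all 14887 genes in that fit, 2.18% were called. Age, library preparation and controls differ between the experiments, so their part in the difference cannot be told apart from that of the transgene.

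The C4b fold changes that chose the set did not include KMC against KC, though the members were chosen with earlier results of these data known. The comparison of KMC with KC asked about M46 where both groups were of the Ras/B genotype. All 9 members had log2 fold changes above 0, as did 51.3% of the 15733 genes tested, with a median of 2.26 against 0.031 over those genes. edgeR called 3 genes (0.0191%) and none of the 9. At an unadjusted p under 0.05, 6 members were higher (the 3 C1q chains, C3, C3ar1 and C5ar1), beside 16.1% of all genes. DESeq2 called the same 6, where it called 9.25% of all genes as higher. Groups did not overlap for 8 of 9 members, beside 34.4% of all genes in that direction.

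C1qa was at 104 and 291 CPM in KMC and at 44.9 and 37.5 CPM in KC (log2 2.26, SE 0.59, adjusted p = 0.101). C1qb was at 102 and 294 CPM against 34.8 and 23.6 CPM (log2 2.76, SE 0.62, adjusted p = 0.0822). C1qc was at 95.2 and 247 CPM against 31.1 and 28.0 CPM (log2 2.54, SE 0.56, adjusted p = 0.0813). KMC library 2 was the highest for all 3 chains and stood well above library 1. C4b did not share that order: it was at 246 and 219 CPM in KMC and at 144 and 107 CPM in KC (log2 0.89, SE 0.47, adjusted p = 0.264).

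C3 was at 624 and 842 CPM in KMC and at 133 and 278 CPM in KC (log2 1.84, SE 0.67, adjusted p = 0.156). C2 was at 2.43 and 4.37 CPM against 2.18 and 1.93 CPM (log2 0.73, SE 0.49, adjusted p = 0.364). Cfb was at 0.71 and 0.92 CPM against 0.75 and 0.43 CPM, with overlapping groups (log2 0.51, SE 0.63, adjusted p = 0.635). The receptors differed more. C3ar1 was at 20.3 and 61.9 CPM against 7.21 and 7.08 CPM (log2 2.53, SE 0.54, adjusted p = 0.0796), and C5ar1 at 8.69 and 31.5 CPM against 1.496 and 3.94 CPM (log2 2.85, SE 0.70, adjusted p = 0.0947).

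The calls depended on the library and on the scaling. Without KMC library 1, with the lone KMC library assumed to vary like the KC pair, edgeR called the C1q chains, C3ar1 and C5ar1, with adjusted p-values of 3.4e-06 to 0.0019, and 2288 genes in all. Without KMC library 2 the log2 fold changes were lower, at 1.36 for C1qa, 1.82 for C1qb, 1.71 for C1qc, 1.53 for C3ar1 and 1.66 for C5ar1, and none of the 9 was called. Acinar genes took 60.3% and 69.2% of counts in KC and 24.7% and 49.3% in KMC. Scaling by library size alone moved the all-gene median from 0.031 to 1.47 on the log2 scale. The C4b log2 fold change was 2.36 under that scaling, and 8 of the 9 members were then called, all but Cfb, among 4715 genes. Scaling by library size without the acinar genes gave an all-gene median of 0.63, and 5 members were called among 1874 genes.

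The macrophage markers were higher in KMC for 8 of 8 genes, each at an unadjusted p under 0.05 and 0 called, with a summed level of 708 and 2290 CPM in KMC and 258 and 230 CPM in KC. Per unit of that sum the C1q chains were at 0.39 ± 0.044 in KMC and 0.41 ± 0.030 in KC (SD, n = 2 each), a log2 difference of -0.06 (two-sided exact permutation p = 0.667, smallest possible 0.333). The ratio of C3ar1 to the sum was 0.028 ± 0.0012 in KMC and 0.029 ± 0.0020 in KC. C4b per unit of the sum was at 0.35 and 0.10 in KMC and at 0.56 and 0.46 in KC, lower in KMC although its level was higher. The fibroblast sum was 2119 and 6203 CPM in KMC against 424 and 883 CPM in KC, and 7 of 7 of its markers had log2 fold changes above 0. Its part in the C3 and C4b levels was not tested.

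**Figure D3:**
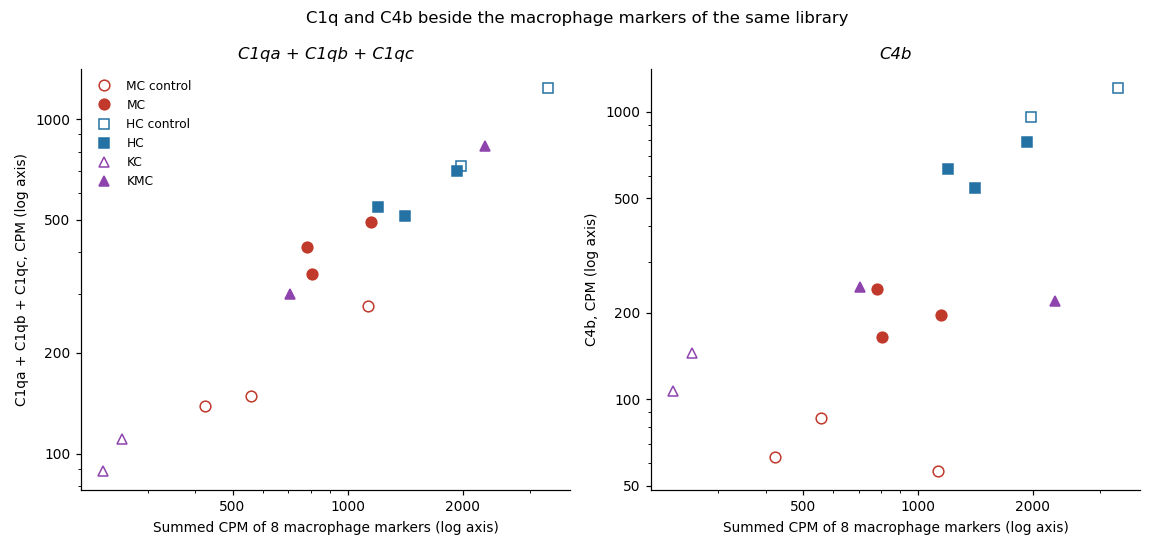
Summed level of the C1q chains (left) and level of C4b (right) against the summed level of 8 macrophage markers in each of the 15 libraries, all in TMM-scaled CPM on log axes; open symbols are the control or KC libraries. The C1q points rise along the marker sum, with MC control library 2 at 1130 CPM of markers below the MC libraries, whereas C4b is lowest in that same library and differs between the experiments at a like marker sum.

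Across the 15 libraries, with log2 values centred within each experiment, likeness differed between pairs of members. The C1q chains had pairwise Pearson r of 0.966 to 0.99 and C3ar1 and C5ar1 had r of 0.944, values that share the same libraries and their depth and composition. Between the chains and the receptors r was 0.941 to 0.947 for C3ar1 and 0.9 to 0.916 for C5ar1. Each of these 5 genes had r of 0.926 to 0.963 with the macrophage marker sum, 0.888 to 0.957 with the fibroblast sum and -0.826 to -0.898 with the acinar sum. C3 had 0.772 with the macrophage sum and 0.868 with the fibroblast sum, C2 had 0.594 and C4b 0.513 with the macrophage sum, and Cfb had 0.463. For C4b the T cell sum gave the highest value of the 10 marker lists, 0.783. The centring left in the differences between groups of an experiment, also those of C4b that chose the set.

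Of 13373 genes tested in all 3 experiments, those most like C4b included Cd69 (r = 0.94), an activation marker of lymphocytes, Ifi47 (0.93) and Gbp3 (0.928), both interferon-inducible GTPases, and the MHC class I-like gene H2-T24 (0.924). Genes that share the group differences of C4b rank high by this measure, so the list is a description and no link to C4b was tested. The 5 most like C3 were Pdgfc (0.978), a growth factor, Capn6 (0.975), Timp2 (0.968), an inhibitor of matrix proteases, Cep55 (0.962) and Xdh (0.961). For C1qa they were C1qc (0.987), Vsir (0.985), which encodes an immune checkpoint protein of myeloid and T cells, Cfp (0.978), which encodes properdin, Slc2a6 (0.978) and Tnfaip8l2 (0.977).

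The rest of the pathway was followed in 48 further genes. In MC, 29 could be fitted, 7 were listed but too low and 12 were not listed in that table. Of the 29, 23 had log2 fold changes above 0, with a median of 0.67, and 0 were called by edgeR. At an unadjusted p under 0.05, 13 were higher (9.2% of all genes) and 1, Vtn, which encodes vitronectin, was lower (5.45%). DESeq2 called 4, all higher, where it called 3.11% of all genes as higher. By size the leading genes were Cfd, Vsig4 and Fcna. Cfd, factor D, the protease that cleaves factor B, was at 62.2, 41.7 and 13.1 CPM in MC and at 0.56, 1.76 and 6.92 CPM in the controls (log2 3.71, SE 0.89, adjusted p = 0.146). Factor D is also a product of fat cells, and the adipocyte marker sum was 48.7 to 128 CPM in MC against 31.4 to 37.8 CPM, with 6 of 6 markers at an unadjusted p under 0.05. Their part in the Cfd level was not tested.

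Vsig4, a macrophage receptor for C3 fragments, was at 7.23, 3.57 and 3.70 CPM in MC against 0.50, 1.19 and 0.85 CPM (log2 2.50, SE 0.42, adjusted p = 0.083). Fcna, ficolin A, a recognition protein of the lectin pathway, was at 8.25, 4.98 and 3.83 CPM against 1.42, 1.64 and 2.11 CPM (log2 1.72, SE 0.33, adjusted p = 0.0927). For both, every MC library lay above every control. By step, the 2 classical, 3 lectin and 2 alternative pathway genes fitted and the 6 receptors all had log2 fold changes above 0, and the regulators were mixed, with 8 of 13 above 0.

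In the HPK1 experiment, 38 of the 48 were fitted and 29 had log2 fold changes below 0, with a median of -0.38. edgeR called 0, and DESeq2 called 3 as lower (1.09% of all genes). At an unadjusted p under 0.05, 10 were lower (7.46% of all genes) and 1 was higher (8.38%). C6, part of the membrane attack complex, was at 2.18, 2.57 and 4.15 CPM in the libraries labelled HC and at 15.7 and 6.32 CPM in the controls (log2 -1.89, SE 0.44, adjusted p = 0.129). Masp1, a lectin pathway protease, was at 17.2, 14.6 and 22.8 CPM against 26.8 and 52.8 CPM (log2 -1.13, SE 0.31, adjusted p = 0.174). Itgax, the alpha chain of complement receptor 4, was at 23.7, 9.78 and 25.6 CPM against 56.0 and 27.3 CPM (log2 -1.08, SE 0.45, adjusted p = 0.32). The 7 receptors were all below 0. Clu, clusterin, an inhibitor of the terminal complex and the most abundant of the 48, was at 22321 to 29742 CPM against 17008 and 19257 CPM (log2 0.52, SE 0.35, adjusted p = 0.526); it was named after its values were seen.

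In KMC against KC, 35 were fitted, 24 of them above 0, with a median of 1.35 and 0 called. At an unadjusted p under 0.05, 16 were higher (16.1% of all genes) and 6 lower (9.48%). DESeq2 called 14 as higher (9.25% of all genes) and 3 as lower (4.47% of all genes). Itgax was at 7.37 and 28.3 CPM against 0.54 and 1.35 CPM (log2 4.17, SE 0.76, adjusted p = 0.0796). Cfp, properdin, which stabilises the alternative convertase, was at 26.0 and 75.5 CPM against 9.52 and 8.39 CPM (log2 2.51, SE 0.53, adjusted p = 0.0796). For Itgax and Cfp, both KMC libraries lay above both KC libraries and library 2 was highest. The 7 receptors were all above 0, whereas 4 of 7 membrane regulators were below 0.

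**Figure D4:**
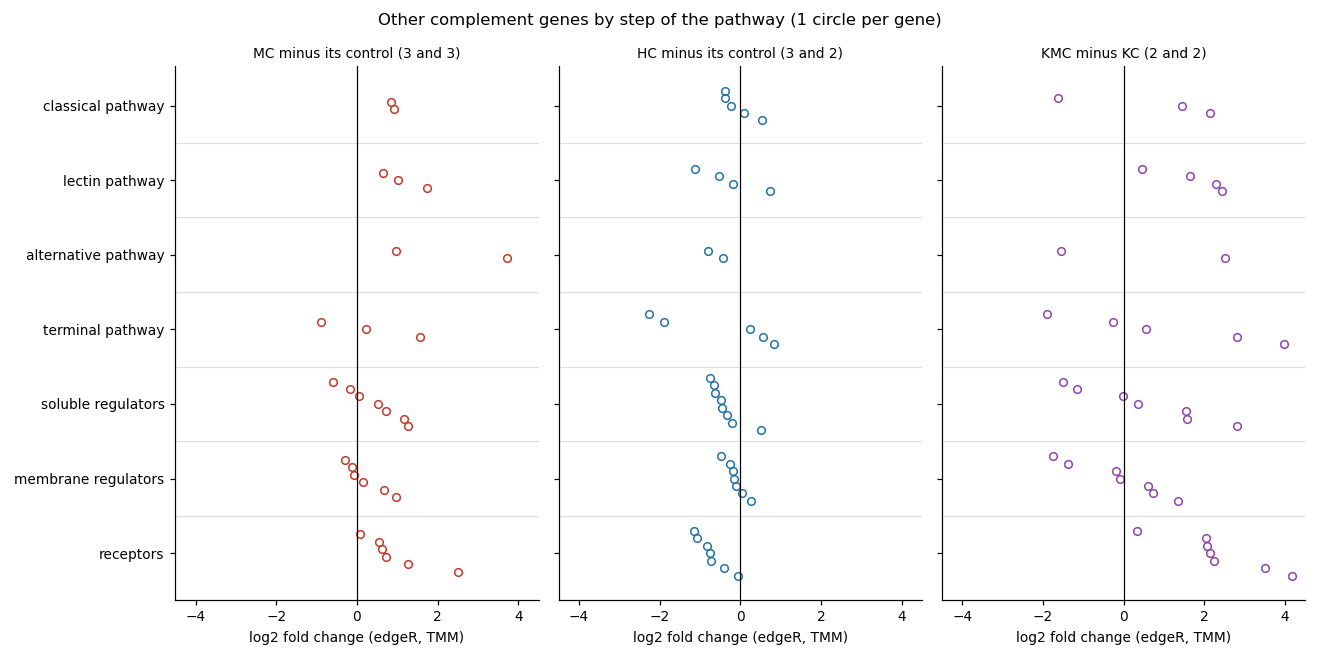
Log2 fold change of the other complement genes that could be fitted, arranged by step of the pathway, 1 circle per gene, for MC (29 genes), HC (38) and KMC (35) against their controls. All receptor circles lie right of 0 in MC and KMC and left of 0 in HC, and the membrane regulators lie on either side in all 3.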

How the data were processed

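The deposited tables hold raw read counts per gene, which the authors made with STAR 2.6.1a and HTSeq 0.6.1 on mm10 (per the labels; the HTSeq mode, strand setting and annotation release are not given in the sources used here). The labels name standard Illumina library preparation for the M46 experiment and a KAPA stranded kit for the rest. A deposited table of the authors' own DESeq2 fold changes and p-values for MC was not used. Each table was fitted whole with edgeR 4.0.16 (legacy quasi-likelihood test, filterByExpr, TMM, Benjamini-Hochberg) in R 4.3.3, without covariates; a gene was called at adjusted p at most 0.05 and a log2 fold change of at least 1 in size. The SE of a log2 fold change was its size over the root of the F statistic. Values are TMM-scaled CPM. DESeq2 1.42.0, other scalings and filters, a replicate block and the omission of each library were the alternatives. On simulated counts with 200 genes changed by a log2 fold change of 2, larger than the changes of the members in MC and HC, 98% were recovered for MC, 97.5% for HC and 67% for KMC. Nothing shows that libraries of a group came from independent experiments beyond separate pools of 3 mice, so p-values measure the spread between these pools. Named genes were the 9 members, any other complement gene called, the 3 with the largest log2 fold change in each comparison whose mean reached 2 CPM, and the 5 most like C4b, C3 and C1qa by Pearson r of log2(CPM + 0.5). The members, lists and tests were chosen with earlier results of these data known. Some genes that these rules name are not reported here.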

Additional observations from a re-analysis of the deposited data

Results flagged for a closer look

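In the 5 genes reported here every library of 1 experiment moved opposite to every library of the other: all MC libraries lay above all their controls, and all libraries labelled HC below theirs. Over all genes tested, 10.9% had all MC libraries above all controls, and 16.1% had all HC-labelled libraries below theirs. The share of genes with both was not counted, so the number of genes here is not read as a result. The genes were flagged because they differed between the experiments, and C4b, 1 of the 5, chose the set. The difference between the 2 effects was not tested for these genes, since the set was chosen on that contrast. On the log2 scale it was 2.28 for C4b, 1.88 for C1qb and 1.90 for C1qc. Among the other complement genes it was 2.33 for Itgax and 2.15 for Masp1, the last at no more than 1.22 CPM in the M46 experiment.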

How the results depend on the processing

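Of 467 recomputed log2 fold changes of single genes, 400 kept their direction and side of the threshold, 63 newly passed it, 3 reversed and 1, without a test, moved by more than the spread between libraries. DESeq2 called 4 members, 4 other complement genes and 453 genes in MC, 3 other complement genes and 467 genes in HC, and 6, 17 and 2159 in KMC. Library size alone called 1 gene in MC and 8, 19 and 4715 in KMC, and gave 2.67 for the C4b difference between experiments, which was 0.82 with the HC and control labels exchanged, a setting chosen after seeing the data; without acinar genes it called 51 genes in HC and 5, 15 and 1874 in KMC. Without a filter, 3 other complement genes and 395 genes were called in HC and 9 genes in KMC. Over the omission of each library, calls ranged from 0 to 4 members, 0 to 9 others and 0 to 718 genes in MC, 0 to 1 other and 0 to 379 genes in HC, and 0 to 5, 0 to 18 and 0 to 2288 in KMC. Over these omissions the log2 difference of the C1q ratio ranged from 0.63 to 0.85 in MC, -0.024 to 0.143 in HC and -0.168 to 0.059 in KMC. Against Csf1r alone it was 0.25 in MC, 0.17 in HC and -0.42 in KMC. Against Adgre1 alone it was 0.26, 0.22 and 0.14. C2 in HC ranged from -0.262 to 0.075, above 0 without control library 2 alone, and Cfb ranged from -0.16 without library 3 to 0.199. Same-number correlations, of values centred within each group, were 0.07, 0.30 and -0.30 in MC, 0.19 and 0.17 in HC, and 0.05 and 0.05 in KMC. Different-number correlations were -0.39 to 0.35 in MC, -0.19 to 0.08 in HC and -0.05 in KMC. With 2 libraries in a group such values mirror each other by construction. They therefore cannot show whether replicate numbers pair the samples in HC and KMC. A replicate block called 1 member (C3ar1), 2 others and 339 genes in HC, 6, 18 and 2469 in KMC and 0 in MC, and gave -0.15 for Cfb in HC. The causes were not tested. With 2 or 3 pools a group, the precision rests on the spread between pools more than on depth.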
